A study of Mus musculus with 18 samples.

Results

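The genes described are those that encode the machinery for bringing proteins into mitochondria, followed through direct cardiac reprogramming while Mtfr1l, Opa1 or both were knocked down. They were chosen by symbol: every gene whose name starts with Tomm or Timm and a digit, together with Timmdc1, Pam16, Dnajc19, Pmpca and Pmpcb. This gave 29 genes of the 23420 in the count tables, of which 27 had enough counts to be tested among 14162 tested genes. Tomm20l had 0 to 10 counts per library and Timm8a2 had 0 counts in all 12 libraries, so neither was tested.

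RNA was sequenced from primary cardiac fibroblasts of neonatal CD1 mice, an outbred stock, that were turned towards induced cardiomyocytes by a retrovirus carrying Mef2c, Gata4 and Tbx5 on 1 transcript. All groups compared carried that virus and a short hairpin RNA (shRNA): shMtfr1l, shOpa1, shMtfr1l together with shOpa1 (the double knockdown), or the non-targeting shNT. Each group had 3 libraries, whose titles place replicate 1 at day 7, replicate 2 at day 8 and replicate 3 at day 9 of reprogramming. The genotype label counts up over the replicates of the Opa1 groups (shOpa1, shOpa2, shOpa3) where the titles read shOpa1 throughout, and groups follow the titles. The labels call the libraries biological replicates without naming separate animals or cultures, so p-values measure the spread between these libraries. No sorting of cells is named, so each library may mix cells at different stages of the conversion. An earlier set of samples held 1 reprogramming sample with shMtfr1l, labelled as 85% knockdown at day 7, and 1 with shNT.

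Most mitochondrial proteins are made in the cytosol and enter through the TOM complex of the outer membrane, where Tomm20, Tomm22 and Tomm70a act as receptors around the Tomm40 pore. Proteins with a cleavable presequence then pass the TIM23 complex of the inner membrane, are pulled in by a motor built on mitochondrial Hsp70 and are trimmed by the processing peptidase Pmpca and Pmpcb, while carrier proteins are escorted by small Tim chaperones to the TIM22 complex. Opa1 is the dynamin-like GTPase that fuses inner membranes and shapes cristae, and Mtfr1l encodes a mitochondrial fission regulator 1 like protein. Heart muscle is among the tissues richest in mitochondria.

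Depth ran from 16205862 to 25317069 counts per library, at which 3 counts equal 0.117 to 0.183 CPM (counts scaled to the size of the library). Mtfr1l fell to 15.7, 13.9 and 19.5 CPM in shMtfr1l libraries and to 22.8, 31.0 and 27.8 CPM in the double knockdown, against 69.4, 69.5 and 76.7 CPM in shNT. Opa1 fell to 7.43, 6.85 and 12.6 CPM in shOpa1 libraries and to 20.7, 15.99 and 18.2 CPM in the double knockdown, against 57.0, 72.6 and 59.7 CPM in shNT. Both targets were thus lowered in the libraries labelled so, and each was less deeply lowered in the double knockdown than in its single one (edgeR quasi-likelihood test, adjusted p = 8.08e-05 for Mtfr1l and 0.000488 for Opa1). Markers of most cell types examined moved with the groups. The summed level of 8 cardiomyocyte markers was 4865 to 5296 CPM in shMtfr1l, 2231 to 2485 CPM in shOpa1 and 2967 to 3025 CPM in the double knockdown, against 3333 to 3529 CPM in shNT. This sum is mostly Tnnt2 and Atp2a2 (means of 2035 and 1207 CPM in shNT). Of the 8 cardiomyocyte markers, 7 were higher in shMtfr1l, 5 lower in shOpa1, and 1 higher and 2 lower in the double knockdown. The sum of 8 fibroblast markers was 21200 to 22320, 26320 to 27040 and 24240 to 26190 CPM in the same 3 groups, against 22200 to 23990 CPM in shNT. That sum rests on abundant collagens: in shOpa1 3 of the 8 fibroblast markers were higher and 4 lower (Col3a1 log2 0.44, Pdgfra -0.66, Lum -0.79), in the double knockdown 2 were higher and 4 lower, and in shMtfr1l 1 was higher and 4 lower. Leukocyte markers, 5 of 6 listed being in the tables, summed to 124 to 449, 214 to 509 and 497 to 640 CPM, against 246 to 359 CPM in shNT, with 4 of the 5 higher in the double knockdown. Markers of 2 further cell types were lower in all 3 knockdown groups. In shMtfr1l, shOpa1 and the double knockdown 5 epicardial markers summed to 170 to 183, 178 to 214 and 174 to 202 CPM, against 274 to 293 CPM in shNT, with 4, 3 and 5 of the 5 lower. In the same order 4 smooth muscle markers summed to 3510 to 3750, 3454 to 3606 and 3305 to 3366 CPM, against 4055 to 4431 CPM in shNT, with 3 of the 4 lower each time. Sums of 5 endothelial markers overlapped shNT, at 42.6 to 50.4, 45.4 to 57.9 and 40.1 to 51.4 CPM in that order, against 42.0 to 46.6 CPM in shNT. Of these, 1 was higher and 1 lower in shMtfr1l and in shOpa1, and none was called in the double knockdown. No marker of these lists was at 0, and their part in the results below was not tested.

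The promoters of 4 members are shown because these genes were higher in shOpa1 and in the double knockdown, both set against the same shNT libraries. Each covers 250 bases before to 50 after a transcript start in RefSeq (GRCm38.p6, the assembly that the tables call mm10). Capitals mark the letters CCGGAAGT, part of the site bound by ETS factors, or AAGATGGC, part of that bound by YY1, searched on both strands together with GCGCATGC, part of the NRF1 site.
Tomm70a, chr16:57121464-57121763, plus strand: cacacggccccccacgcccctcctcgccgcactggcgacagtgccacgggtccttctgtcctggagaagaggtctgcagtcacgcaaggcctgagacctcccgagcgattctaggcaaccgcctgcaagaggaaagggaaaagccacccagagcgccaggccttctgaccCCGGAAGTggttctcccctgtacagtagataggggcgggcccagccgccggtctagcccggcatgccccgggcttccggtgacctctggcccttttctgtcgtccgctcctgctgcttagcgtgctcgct
Tomm34, chr2:164071053-164071352, minus strand: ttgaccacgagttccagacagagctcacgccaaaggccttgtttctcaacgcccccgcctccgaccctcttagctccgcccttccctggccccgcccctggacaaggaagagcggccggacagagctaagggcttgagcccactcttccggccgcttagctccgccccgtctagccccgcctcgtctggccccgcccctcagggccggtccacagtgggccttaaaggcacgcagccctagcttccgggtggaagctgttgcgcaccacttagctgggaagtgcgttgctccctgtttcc
Tomm40, chr7:19715380-19715679, minus strand: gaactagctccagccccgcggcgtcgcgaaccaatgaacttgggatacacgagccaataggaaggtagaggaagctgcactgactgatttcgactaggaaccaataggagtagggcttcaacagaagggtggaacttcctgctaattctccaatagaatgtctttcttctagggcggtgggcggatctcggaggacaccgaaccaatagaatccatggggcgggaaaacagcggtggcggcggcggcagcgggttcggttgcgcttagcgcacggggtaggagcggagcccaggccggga
Timm50, chr7:28311997-28312296, minus strand: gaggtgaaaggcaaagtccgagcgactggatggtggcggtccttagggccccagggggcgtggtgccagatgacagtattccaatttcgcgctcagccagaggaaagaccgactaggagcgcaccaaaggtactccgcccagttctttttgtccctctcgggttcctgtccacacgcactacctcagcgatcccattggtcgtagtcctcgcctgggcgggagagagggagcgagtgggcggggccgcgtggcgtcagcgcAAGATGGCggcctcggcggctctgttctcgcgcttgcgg

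Of the 29 members 26 had a promoter in the RefSeq table, and Tomm40l, Tomm7 and Timm21 did not. CCGGAAGT or its reverse complement was in the promoters of 7 of the 26 (26.9%): Pmpcb, Timm10, Timm10b, Timm23, Timm8a2, Timmdc1 and Tomm70a. It was in 4.31% of all 27025 genes with a promoter and in 8.35% of the 10404 tested genes that could be matched. The sets differ: the 7 include Timm8a2 and the 26 also Tomm20l, and neither was tested. GCGCATGC was in 1 member, Timm13 (3.85%), against 3.05% of all genes and 5.8% of the tested ones, and AAGATGGC in 1 member, Timm50 (3.85%), against 3.19% and 4.89%. No printed window held more than 1 of the 3 motifs, and those of Tomm34 and Tomm40 held none. A match here describes letters and not a bound site.

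Per transcript length the members spanned a wide range. Averaged over 12 libraries, Tomm6, a small subunit that in yeast steadies the TOM complex, was highest at 60.3 ± 8.15 RPKM (CPM per kilobase of transcript, ± SD), followed by the small chaperone Timm8b at 58.3 ± 7.07 and the pore Tomm40 at 51.7 ± 8.94 RPKM, and these 3 did not differ beyond their spread. Next came Tomm22 at 37.2, Tomm5 at 37.1 and the catalytic peptidase subunit Pmpcb at 35.6 RPKM, whose ranges overlapped. The lowest tested members were the small chaperone Timm9 at 6.39, the motor subunit Pam16 at 6.12 and Timm8a1 at 4.19 RPKM. Tomm20l, a relative of Tomm20, averaged 0.324 RPKM and Timm8a2 was at 0, at depths where 3 counts equal at most 0.183 CPM.

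**Figure D1:**
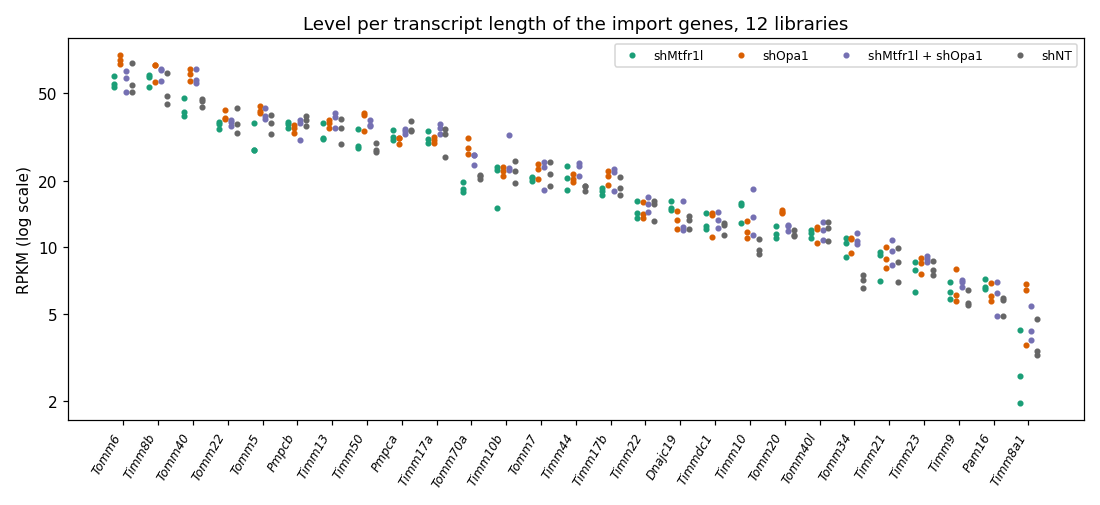
Level per transcript length (RPKM, log scale) of the 27 tested import genes in each of the 12 libraries, ordered by their mean and coloured by group, each dot 1 library. Tomm6, Timm8b and Tomm40 lie highest, Timm8a1 lies lowest at 1.97 to 6.79 RPKM, and neighbours in the order overlap except Timm17b and Timm22.

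Against shNT, 6 of 27 members rose in shOpa1 (Tomm70a, Tomm34, Tomm40, Timm50, Tomm20 and Tomm6) and 1 fell (Pmpca). That is 22.2% higher, where 14% of all tested genes were higher, and 3.7% lower, where 14.8% were lower, called at an adjusted p under 0.05 (edgeR quasi-likelihood test, Benjamini-Hochberg over 14162 genes). Called or not, 22 of the 27 had a positive log2 fold change (81.5%, against 51.1% of all tested genes), with a median of 0.14 against 0.01 for all genes. Summed over all members, the level was 996 to 1059 CPM in shOpa1 libraries and 883 to 949 CPM in shNT. In bulk RNA, fewer cells of a type and less RNA per cell cannot be told apart.

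In the double knockdown 6 of 27 members rose against shNT (Tomm34, Tomm40, Tomm70a, Timm50, Timm44 and Timm10) and none fell. The 22.2% called higher stands beside 11.8% of all tested genes, and the absence of lower calls beside 11.6%. Here 23 of 27 had a positive log2 fold change (85.2%, against 50.5% of all genes), with a median of 0.15 against 0.00. With Mtfr1l knocked down alone, 1 member rose (Tomm34, 3.7% of 27, where 5% of all tested genes were higher) and none fell, where 4.79% of all genes were lower. Positive log2 fold changes were seen for 12 of 27 in that group (44.4%, against 50.5% of all genes), and the median was -0.04. That median has no stable sign: it was 0.004 without replicate 2 of shMtfr1l, 0.0216 without replicate 1 of shNT, and -0.0752 to 0.0396 over all sets of libraries left out.

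**Figure D2:**
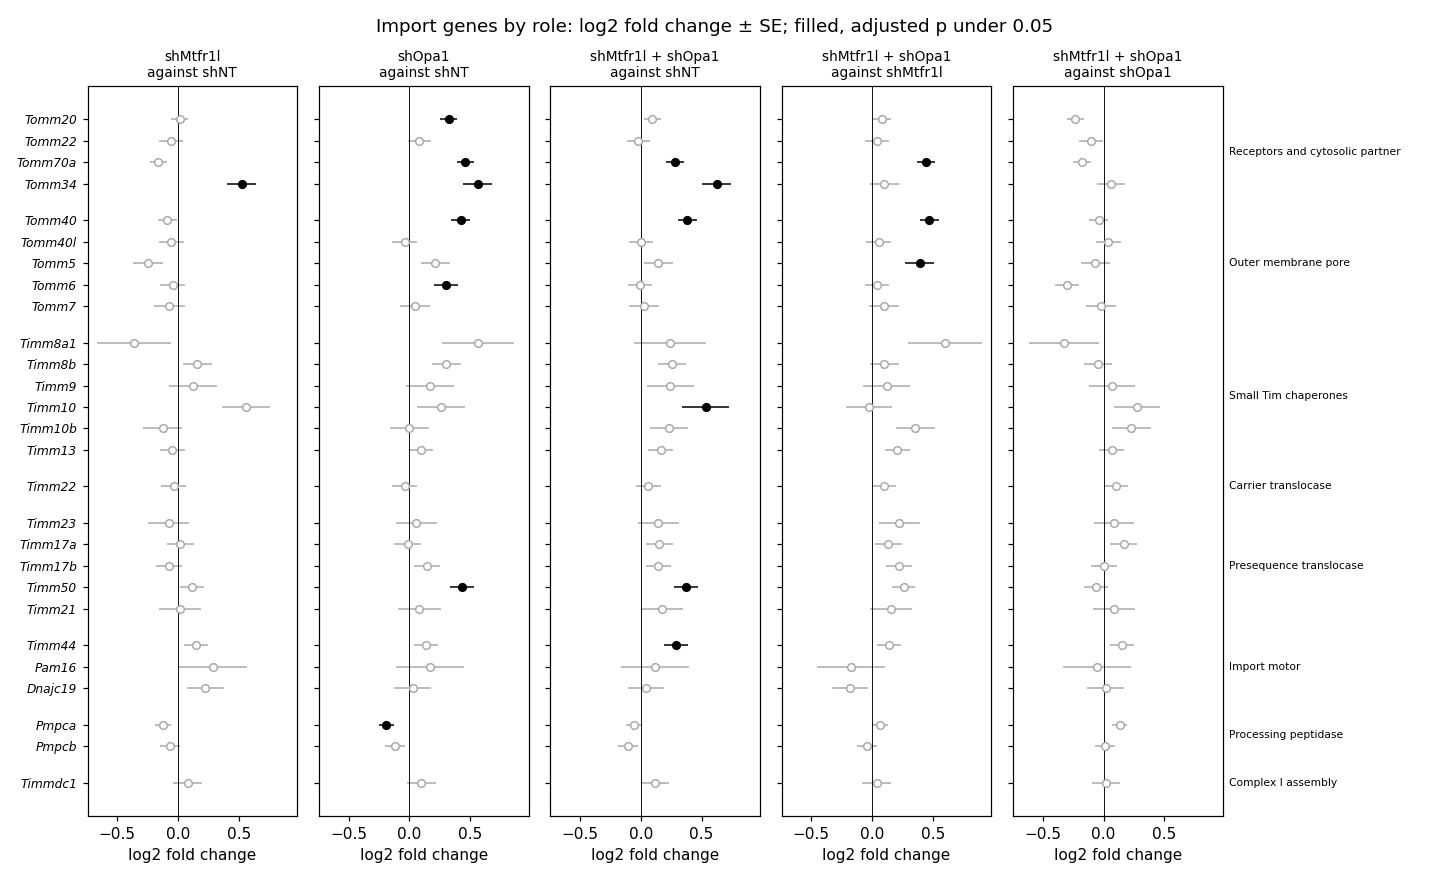
Log2 fold change of the 27 tested import genes in 5 comparisons, ordered by role from receptors to peptidase, with bars of 1 SE and filled points for an adjusted p under 0.05. Tomm70a and Tomm40 are filled and right of 0 in shOpa1 and the double knockdown against shNT and in the double knockdown against shMtfr1l, Tomm34 alone is filled for shMtfr1l against shNT, and no point is filled in the double knockdown against shOpa1.

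Of the receptors, Tomm70a, which takes in carrier proteins together with their cytosolic chaperones, had the smallest adjusted p of the members in shOpa1. It had 99.8, 106 and 118 CPM in shOpa1 libraries, 98.7, 98.98 and 89.0 CPM in the double knockdown and 69.4, 74.4 and 67.1 CPM in shMtfr1l, against 79.1, 77.0 and 79.7 CPM in shNT. Every library with Opa1 knockdown lay above every library without it. The summed fibroblast markers separated the same libraries in the same direction, and the summed cardiomyocyte markers in the opposite one. The rise was 1.37-fold in shOpa1 (log2 0.46 ± 0.07 SE, edgeR adjusted p = 2.84e-05) and 1.22-fold in the double knockdown (log2 0.28 ± 0.07, adjusted p = 0.00532). In the double knockdown its adjusted p reached 0.0502 without replicate 1 of all groups and 0.11 without replicate 2.

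Tomm20, the receptor that binds presequences, had 71.7, 71.1 and 73.2 CPM in shOpa1, 62.6, 62.3 and 59.0 CPM in the double knockdown and 62.1, 57.0 and 55.0 CPM in shMtfr1l, against 56.7, 56.0 and 59.8 CPM in shNT. The shOpa1 libraries stood above all 9 others, 1.252-fold over shNT (log2 0.32 ± 0.07, edgeR adjusted p = 0.00119). The double knockdown and shNT overlapped for Tomm20 (log2 0.09, adjusted p = 0.385), and the difference between double knockdown and shOpa1 did not pass (log2 -0.23 ± 0.07, adjusted p = 0.0686). Tomm22, the central receptor that organises the complex, showed no call in any comparison, with 38.9, 42.6 and 39.4 CPM in shOpa1 and 36.9, 43.7 and 33.5 CPM in shNT.

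Tomm34, a cytosolic protein that works with Hsp70 and Hsp90 on proteins bound for mitochondria (chr2:164053541-164071102, minus strand, mm10), rose under all 3 knockdowns. It had 24.0, 20.7 and 25.3 CPM in shMtfr1l, 25.2, 21.5 and 25.1 CPM in shOpa1 and 23.6, 26.8 and 24.6 CPM in the double knockdown, against 15.1, 17.3 and 16.3 CPM in shNT. All 9 knockdown libraries lay above all 3 shNT libraries, the knockdown groups overlapped one another, and the summed epicardial and smooth muscle markers separated the same libraries in the opposite direction. The fold changes were 1.44 (log2 0.52 ± 0.12, edgeR adjusted p = 0.00623), 1.48 (0.56 ± 0.12, 0.000983) and 1.54 (0.62 ± 0.12, 0.000532). The 3 comparisons share the shNT libraries, so they are not 3 separate measurements of a low shNT level. The rise with shMtfr1l missed the threshold without replicate 1 of all groups (adjusted p = 0.131) and without replicate 3 (0.0859). The interaction, which asks whether the double knockdown differs from the sum of the single ones, was -0.46 ± 0.17 on the log2 scale and did not pass (adjusted p = 0.161).

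The pore Tomm40 had 93.9, 101 and 107 CPM in shOpa1, 106, 92.6 and 94.7 CPM in the double knockdown and 65.5, 78.7 and 68.1 CPM in shMtfr1l, against 78.0, 76.0 and 71.4 CPM in shNT. As with Tomm70a, the 6 libraries with Opa1 knockdown lay above the 6 without it. The cardiomyocyte and fibroblast marker sums also separated these libraries. It rose 1.34-fold in shOpa1 (log2 0.42 ± 0.08, edgeR adjusted p = 0.00021) and 1.30-fold in the double knockdown (log2 0.38 ± 0.08, adjusted p = 0.000876), and both calls held with any replicate left out. Its relative Tomm40l was at 30.6 to 36.1 CPM in shOpa1 and 31.1 to 37.7 CPM in shNT, with no call in any comparison.

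The small subunits around the pore differed among themselves. Tomm6 had 67.9, 71.0 and 74.4 CPM in shOpa1, 58.8, 63.3 and 50.9 CPM in the double knockdown and 59.6, 55.0 and 53.7 CPM in shMtfr1l, against 68.8, 54.4 and 50.8 CPM in shNT. Replicate 1 of shNT overlapped shOpa1, and the 1.23-fold rise (log2 0.30 ± 0.10, edgeR adjusted p = 0.0252) was lost without replicate 2 or 3 of shOpa1 (adjusted p = 0.0557 and 0.0871) or of shNT (0.113 and 0.161). Tomm5 had 29.3, 26.8 and 26.0 CPM in the double knockdown and 28.5, 27.9 and 29.9 CPM in shOpa1, and 18.9, 24.9 and 19.0 CPM in shMtfr1l against 27.2, 22.4 and 24.9 CPM in shNT. It was not called against shNT in any group (log2 0.14, 0.21 and -0.25). Tomm7, which in yeast loosens the complex, had no call in any comparison.

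Of the 5 presequence translocase genes of the inner membrane, Timm50 moved. Timm50, the inner membrane receptor that hands presequence proteins to the channel, had 47.9, 39.6 and 46.6 CPM in shOpa1, 41.8, 44.2 and 42.3 CPM in the double knockdown and 33.9, 40.2 and 33.1 CPM in shMtfr1l, against 31.7, 35.0 and 32.3 CPM in shNT. Both groups with Opa1 knockdown lay above shNT, while 1 shMtfr1l library (replicate 2) reached into the range of shOpa1. Timm50 rose 1.35-fold in shOpa1 (log2 0.44 ± 0.10, edgeR adjusted p = 0.00143) and 1.29-fold in the double knockdown (log2 0.37 ± 0.10, adjusted p = 0.0067), and without replicate 1 of all groups these were 0.0524 and 0.06. The channel Timm23, its partners Timm17a and Timm17b, and Timm21, which links the channel to the respiratory chain, had no call in any comparison, with log2 fold changes of 0.06, -0.01, 0.14 and 0.08 in shOpa1 against shNT.

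Timm44, which anchors the Hsp70 motor to the channel, had 42.9, 37.4 and 41.4 CPM in the double knockdown, 35.0, 38.2 and 36.3 CPM in shOpa1 and 36.5, 32.4 and 41.6 CPM in shMtfr1l, against 33.7, 33.8 and 32.0 CPM in shNT. The double knockdown lay above shNT without overlap, 1.22-fold (log2 0.29 ± 0.10, edgeR adjusted p = 0.0344). This call did not hold without replicate 1 or 3 of the double knockdown (adjusted p = 0.137 and 0.0949) or without replicate 1, 2 or 3 of shNT (0.0605, 0.0706 and 0.115). The motor subunits Pam16 and Dnajc19, the latter with a human counterpart (DNAJC19) linked to a cardiomyopathy, had no call in any comparison.

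Among the small Tim chaperones, which keep hydrophobic proteins soluble between the membranes, Timm10 was the member that passed. It had 7.55, 12.2 and 9.07 CPM in the double knockdown, 8.71, 7.80 and 7.35 CPM in shOpa1 and 8.52, 10.3 and 10.6 CPM in shMtfr1l, against 6.23, 6.46 and 7.23 CPM in shNT. All knockdown libraries lay above all shNT libraries, the split that the epicardial and smooth muscle markers also showed, and replicate 2 of the double knockdown was the highest. The call in the double knockdown was marginal (1.45-fold, log2 0.53 ± 0.19, edgeR adjusted p = 0.0499). It was lost in 18 of 21 alternatives, with an adjusted p of 0.0645 with the replicate number as a block, and with 0.316 without that highest library, 0.0757 without replicate 3 of the double knockdown, 0.128, 0.127 and 0.07 without replicate 1, 2 or 3 of shNT, and 0.0512 to 0.0574 without any 1 library of the groups outside the comparison. In shMtfr1l it was 1.47-fold (log2 0.56 ± 0.20, adjusted p = 0.0768).

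Timm8b, which works with Timm13, had 35.3, 29.5 and 35.3 CPM in shOpa1 and 32.4, 25.6 and 23.3 CPM in shNT, with replicate 1 of shNT inside the shOpa1 range. Its log2 difference of 0.30 ± 0.12 missed the threshold (edgeR adjusted p = 0.0571) and passed it without that shNT library (0.00693), without replicate 2 of shOpa1 (0.0307), with no filter on low counts (0.0369), with robust dispersion (0.0445) and with the replicate number as a block (0.0466). In the double knockdown, at 33.2, 33.7 and 29.9 CPM, it passed against shNT without that same shNT library (adjusted p = 0.0177, against 0.125 with it). Timm8a1, on the X chromosome and the tested member with the lowest RPKM, ranged from 2.34 to 8.04 CPM over the 12 libraries. Its log2 difference was the highest of all members in shOpa1, 0.57 ± 0.30, and did not pass (adjusted p = 0.165). It ran from 0.30 to 0.99 with libraries left out and passed without replicate 1 of all groups (0.026). Timm9, Timm13, the carrier channel Timm22 and its partner Timm10b had no call in any comparison, while with no filter on low counts Timm10b was higher in the double knockdown than in shMtfr1l (log2 0.36, adjusted p = 0.0483, against 0.119 with the filter).

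Of the processing peptidase, which cuts presequences off in the matrix, 1 subunit fell in shOpa1. Pmpca had 91.8, 97.1 and 97.2 CPM in shOpa1, 102, 107 and 105 CPM in the double knockdown and 98.1, 95.6 and 106 CPM in shMtfr1l, against 116, 105 and 106 CPM in shNT. It was lower in shOpa1 without overlap, by 1.14-fold (log2 -0.19 ± 0.06, edgeR adjusted p = 0.0251). The call was lost without replicate 1 of shOpa1 (adjusted p = 0.104) or of shNT (0.118). Its partner Pmpcb had 52.6, 55.5 and 56.7 CPM in shOpa1 and 56.3, 62.4 and 60.3 CPM in shNT, with a log2 difference of -0.12 that did not pass. Timmdc1, an assembly factor of complex I that shares the Tim17 family fold, had no call in any comparison.

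**Figure D3:**
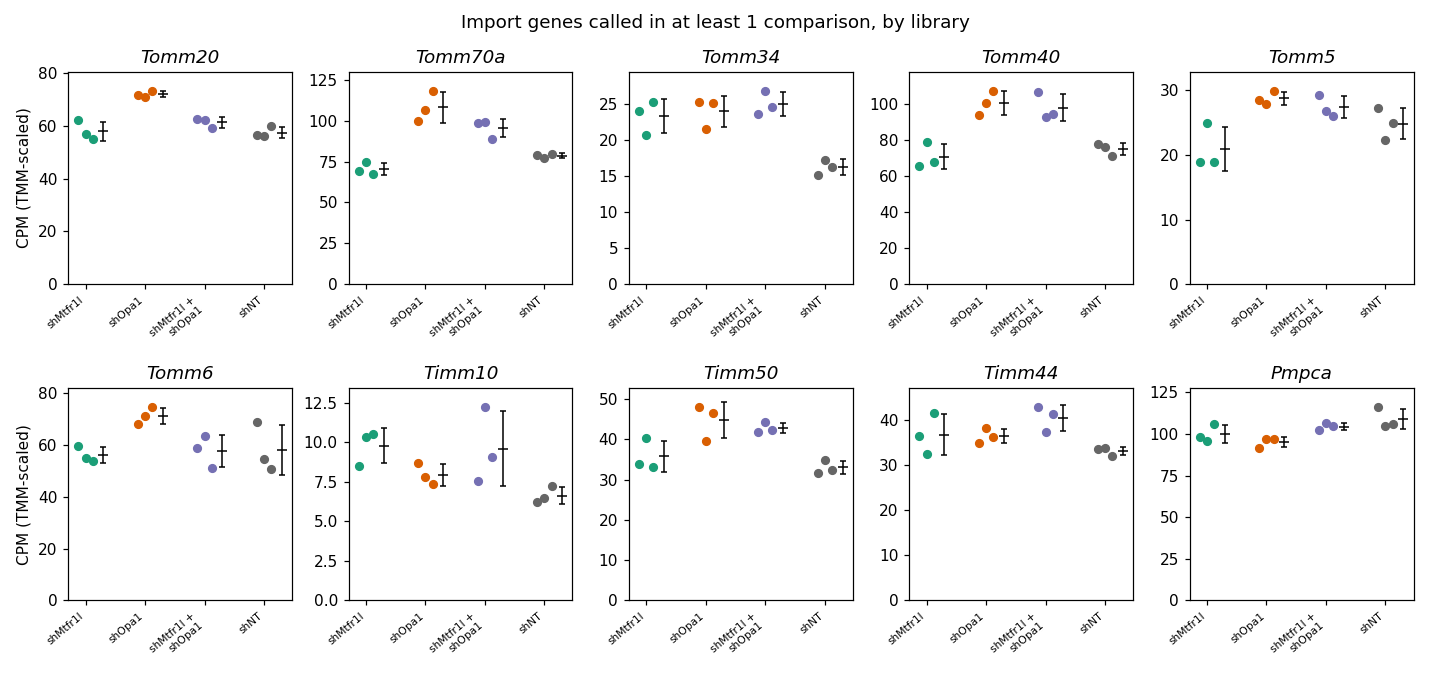
CPM of the 10 import genes called in at least 1 comparison, with 1 dot per library and the mean ± SD (n = 3) beside each group, on axes that start at 0. Tomm70a and Tomm40 are high in both groups with Opa1 knockdown, Tomm34 is low in shNT at 15.1 to 17.3 CPM, and Tomm20 and Tomm6 are high in shOpa1.

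With Opa1 knockdown added to Mtfr1l knockdown, 3 members were higher. The double knockdown set against shMtfr1l compares these without shNT: Tomm70a rose 1.36-fold (log2 0.44 ± 0.07, edgeR adjusted p = 8.04e-05), Tomm40 1.38-fold (log2 0.47 ± 0.08, 0.000111) and Tomm5 1.31-fold (log2 0.39 ± 0.12, 0.0224), and none fell. The 3 are 11.1% of 27, where 10.2% of all tested genes were higher and 11.3% lower, so the share called higher was near that of all genes. Positive log2 fold changes were found for 23 of 27 members (85.2%, against 50.5% of all genes), with a median of 0.10. Tomm5 was lost without replicate 1 or 3 of shMtfr1l (adjusted p = 0.115 and 0.103) or replicate 1 of the double knockdown (0.0969), while Tomm70a and Tomm40 held with any replicate left out. Timm50 (log2 0.26, adjusted p = 0.0607) passed without replicate 2 of shMtfr1l (0.0194) and by the DESeq2 Wald test (0.0475), and Timm8a1 (log2 0.60, 0.173) without replicate 1 of shMtfr1l (0.0476). Cardiomyocyte markers were lower in this comparison for 8 of 8 genes and leukocyte markers higher for 4 of 5. Mtfr1l itself was 1.66-fold higher in the double knockdown than in shMtfr1l, so a weaker Mtfr1l knockdown is part of this comparison.

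With Mtfr1l knockdown added to Opa1 knockdown, no member was called by the edgeR test. Opa1 itself was 2.04-fold higher in the double knockdown than in shOpa1, so a weaker Opa1 knockdown is part of this comparison. None of 27 was called in the double knockdown against shOpa1, where 2.05% of all tested genes were higher and 2.17% lower. An unadjusted p under 0.05 was found for 4 of the 27 members and for 2347 of all 14162 tested genes. The DESeq2 Wald test called 1, Tomm20 (log2 -0.23, adjusted p = 0.034), and edgeR called Tomm6 (log2 -0.30, adjusted p = 0.0911 in the fit of all libraries) without replicate 1 of shNT (0.0354), with no filter on low counts (0.00836) and with only these 2 groups in the fit (0.0418). The median log2 fold change was 0.02. The interaction of both knockdowns called none of 27, beside 1.27% of all genes above the sum of the single effects and 1.59% below it. There 3 of the 27 members had an unadjusted p under 0.05, as did 2169 of all 14162 tested genes. DESeq2 called no member, and the smallest adjusted p by edgeR was 0.136 for Pmpca (log2 0.25 ± 0.09). Both targets were themselves called in the interaction (edgeR adjusted p = 0.00732 for Mtfr1l and 0.0322 for Opa1). It thus also carries the weaker knockdown of each target in the double group.

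The wider import pathway was followed in 22 further genes for the motor, the disulfide relay, membrane insertion, sorting and presequence turnover, all of them tested. In shOpa1 5 rose and 1 fell, and in the double knockdown against shNT 3 rose and 1 fell. With shMtfr1l none was called by edgeR, where 5% of all tested genes were higher and 4.79% lower, while DESeq2 called Mtch1. With shMtfr1l 5 of the 22 had an unadjusted p under 0.05, as did 3063 of all 14162 tested genes. The shares in shOpa1 were 22.7% higher and 4.55% lower, where 14% and 14.8% of all tested genes were called, and in the double knockdown 13.6% and 4.55%, where 11.8% and 11.6% were called. Hspa9, the mitochondrial Hsp70 of the import motor, had 475, 504 and 517 CPM in shOpa1, 496, 520.4 and 505 CPM in the double knockdown and 405, 425 and 437 CPM in shMtfr1l, against 372, 404 and 386 CPM in shNT. Both groups with Opa1 knockdown lay above all others, by 1.29-fold and 1.31-fold over shNT (edgeR adjusted p = 4.39e-06 and 3.95e-06). The cardiomyocyte and fibroblast marker sums showed this split too.

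Pitrm1, the peptidase that degrades cleaved presequences, had 143, 144 and 147 CPM in shOpa1, 119.8, 116 and 119 CPM in the double knockdown and 86.4, 89.1 and 87.8 CPM in shMtfr1l, against 94.4, 98.7 and 94.4 CPM in shNT. The groups did not overlap, with rises of 1.51-fold in shOpa1 and 1.23-fold in the double knockdown (edgeR adjusted p = 2.06e-08 and 0.000327). The double knockdown was lower than shOpa1 by 1.23-fold (adjusted p = 0.00222), a call that was lost without replicate 2 of all groups (0.0974). Mtch1, a carrier-like protein of the outer membrane, fell in shOpa1 to 482, 478 and 480.0 CPM and in the double knockdown to 527, 518 and 486 CPM, against 691, 672 and 652 CPM in shNT. Its log2 fold changes were -0.48 ± 0.04 and -0.40 ± 0.04 (adjusted p = 1.81e-08 and 7.68e-07).

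Chchd4 and Gfer, the oxidase pair that folds small Tim proteins by disulfide bonds, rose in shOpa1 by 1.46-fold and 1.23-fold (edgeR adjusted p = 0.0128 and 0.0359). Chchd4 missed the threshold without replicate 3 of shNT (0.0863), and Gfer without replicate 2 or 3 of shOpa1 (0.0688 and 0.119) or any shNT library (0.0579, 0.0958 and 0.0869). Cox18, which inserts a respiratory subunit into the inner membrane, rose 1.42-fold in shOpa1 (adjusted p = 0.0201) and 1.36-fold in the double knockdown (adjusted p = 0.0491). The Cox18 rise in shOpa1 was lost without replicate 3 of shOpa1 (0.117) or replicate 2 or 3 of shNT (0.0994 and 0.0705), and that in the double knockdown without replicate 1 or 3 of it (0.132 and 0.175), replicate 2 or 3 of shNT (0.19 and 0.138), or replicate 1 of shMtfr1l or of shOpa1 (0.0586 and 0.0585), and with no filter on low counts (0.0561). Samm50, the core of the outer membrane sorting complex, was higher in the double knockdown than in shOpa1 by 1.20-fold (adjusted p = 0.0466), a call lost in 12 of 21 alternatives, among them the replicate number as a block (0.0598), each library of these 2 groups left out (0.0688 to 0.188), replicate 1 of shMtfr1l left out (0.0559) and replicate 3 of shNT left out (0.0509).

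The earlier set holds a further, unreplicated measurement of Mtfr1l knockdown. The targeted gene had 8.73 CPM in the shMtfr1l sample and 79.2 CPM in the shNT sample. Of the 27 tested members 25 were higher in shMtfr1l than in shNT (92.6%, against 50% of the 15198 genes kept), with a median log2 difference of 0.24 against 0.00 for all genes. With 1 sample for each condition in the labels, no test was made, and each sample is the sum of 3 count columns. Over the 9 pairings of single columns the members' median ran from 0.09 to 0.34, above 0 in each.

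The highest member there was Timm10, with 11.2 CPM in shMtfr1l and 6.66 CPM in shNT (716 against 438 counts). Tomm34 had 37.3 CPM in shMtfr1l and 29.8 CPM in shNT, a log2 difference of 0.32, and in the later set it was 0.52. Tomm70a had 67.8 CPM in shMtfr1l and 70.5 CPM in shNT, and with Tomm40l it was the pair below 0. Pmpca and Pmpcb had log2 differences of 0.33 and 0.36 in the earlier set, and of -0.12 and -0.06 in the later one. The difference between the sets was not tested, since the earlier one has no replicates in the labels.

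**Figure D4:**
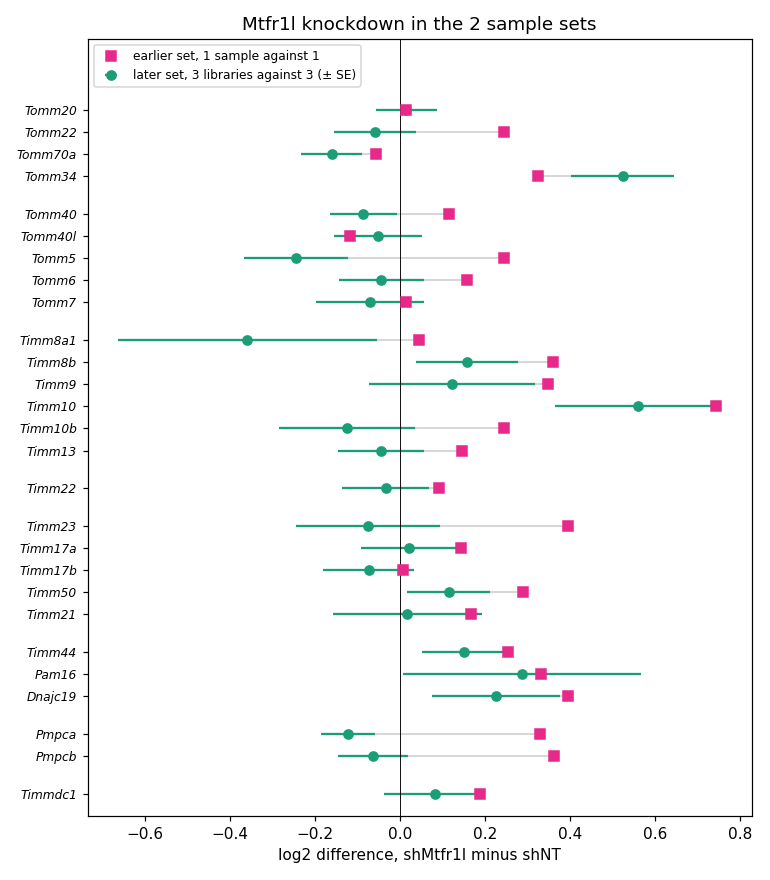
Log2 difference of shMtfr1l minus shNT for the 27 tested import genes, ordered by role, in the earlier set (squares, 1 sample against 1, no error) and in the later set (circles with bars of 1 SE, 3 libraries against 3). Squares lie right of 0 for 25 genes and circles for 12, with Timm10 and Tomm34 to the right in both.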

How the data were processed

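The authors deposited unscaled counts for each gene. Per the file headers, the authors counted reads with featureCounts 2.0.6 in paired, strand-specific mode (setting 2) on the UCSC annotation of mm10. Per the same headers multi-mapping reads were left out and mates were not joined into fragments, so 65.86% of counts from 1 to 20 were even. Members with near-identical copies elsewhere may lose reads this way. The submitters' processing notes list FastQC and DESeq2. No aligner is given in those notes, the labels or the headers. Per the labels, RNA was extracted with Trizol.

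From these counts, CPM were computed with TMM scaling, RPKM with the gene lengths in the files, and low genes were removed with filterByExpr. The 4 groups entered 1 fit in edgeR 4.0.16 (a quasi-likelihood model with a mean for each group and 8 residual degrees of freedom, Benjamini-Hochberg adjustment, threshold 0.05) in R 4.3.3 over all 14162 genes in 6 comparisons. The common biological coefficient of variation was 12.04%. Alternatives were DESeq2 1.42.0 (size factors, Wald test), no filter, only the groups compared, a replicate block, libraries left out and, chosen after seeing the data, robust dispersion. The floor of 3 counts covers counting error only and takes counts as independent, which mates counted singly are not. The fits were tested on simulated data. In the earlier set 3 count columns per sample were summed, and 12 columns that could not be tied to a label were not used.

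The titles give same-numbered libraries the same day, so the replicate block was run beside the unblocked fit. Deviations of same-numbered libraries from their group means correlated at -0.189 to 0.122 over 18 pairs, with 1 pair over 0.1, and those of other-numbered ones at -0.136 to 0.195. Within groups no library was a copy of another, with a chi-square per gene of 5.32 to 10.1. Pairs across groups were not checked in this way. Members and lists were chosen with earlier results of these data known. Every member may be named, members called in at least 1 comparison are given by library, and other import genes are named for their smallest adjusted p.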

Additional observations from a re-analysis of the deposited data

How the results depend on the processing

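No called member changed sign under the 21 alternatives (20 for the interaction). Medians near 0 did with libraries left out: -0.0752 to 0.0396 for shMtfr1l against shNT (main -0.04), -0.0292 to 0.0513 for the double knockdown against shOpa1 (0.02) and -0.0588 to 0.0851 for the interaction (0.03). The count of members called for shMtfr1l against shNT was 0 to 1 with libraries left out (1 in the main analysis), 0 without replicate 1 or replicate 3 of all groups. For the double knockdown against shNT it was 2 to 5 (main 6), the 2 without replicate 1 being Tomm34 and Tomm40, and for shOpa1 against shNT 5 to 7 (main 7). For the double knockdown against shMtfr1l it was 2 to 4 (main 3). For the double knockdown against shOpa1 it was 0 to 1 with libraries left out, and 1 with no filter, with the DESeq2 Wald test and with only the groups compared (main 0). For the interaction it was 0 throughout. With the replicate block the counts were 1, 8, 5, 3, 0 and 0 for shMtfr1l, shOpa1 and the double knockdown against shNT, the double knockdown against shMtfr1l and shOpa1, and the interaction, and outside the calls given in the text it changed none among the members. Across alternatives with all libraries kept, the block included, all genes called against shNT were 1222 to 1675, 3866 to 4319 and 3101 to 3581. In the remaining comparisons they were 2838 to 3337, 454 to 1024 and 296 to 719, in the same order. The members' median in the earlier set was 0.0924 and 0.337 in the lowest and highest pairing of single columns (0.24 for the sums).

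With libraries left out the counts over all genes against shNT were 638 to 1445 for shMtfr1l (main 1387), 2926 to 4151 for shOpa1 (4075) and 2121 to 3422 for the double knockdown (3310). For the double knockdown they were 1769 to 3196 against shMtfr1l (3047) and 132 to 664 against shOpa1 (597), and for the interaction 113 to 453 (405). With no filter the last 2 were 1024 and 719, and DESeq2 gave 648 for the interaction. The cause was not tested. With 3 libraries a group, low members such as Timm8a1 had standard errors of up to 0.31 between groups on the log2 scale. Day and replicate number cannot be told apart.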
